A study of Mus musculus with 2 samples.

Results

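Metalloproteases of the MMP, ADAM and ADAMTS families and their inhibitors were followed in primary mouse osteoblast cultures. Members were taken as array probe sets whose single gene symbol starts with Mmp, Adam or Timp and a digit or with Adamts, or is Reck. This gave 125 probe sets for 71 genes, out of 45037 probe sets other than controls and 18193 named genes. They were 18 MMP, 28 ADAM and 20 ADAMTS or ADAMTS-like (ADAMTSL) genes, 4 TIMP genes and Reck. The cells came from the skull roof bones (calvariae) of newborn mice, were CD11b-negative, meaning that they lacked a myeloid surface protein, and received no further treatment. Every culture was given ascorbic acid at 50 µg/ml and β-glycerophosphate at 10 mM, which support collagen deposition and mineral formation, for 5 or 12 days. The labels name no strain and no number of pooled animals. Each day was 1 sample on 1 array, so no error or p-value can be given, and each difference below is between these 2 arrays.

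Metalloproteases of these 3 families hold a zinc ion in the active site and are made as inactive precursors that are opened when a propeptide is cut or displaced. MMPs cut collagens and other matrix proteins and are needed for the remodelling of bone and growth cartilage. ADAMs are membrane proteins that release the outer parts of receptors, ligands and adhesion proteins, and some ADAMs lack the zinc-binding residues and act in adhesion. ADAMTS enzymes are secreted and cut proteoglycans, procollagens and other matrix proteins, while ADAMTSL proteins resemble their ancillary part and have no protease domain. TIMPs block the active site, and Reck is a membrane-anchored inhibitor of several MMPs.

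Most members differed little between the days. Signals under each array's 60th percentile (46.6 on the day 5 array, 44.8 on the day 12 array), here called the floor, were treated as background. Of the 71 genes, 36 reached the floor on at least 1 array and are called measured. Among these, 33 reached it on both arrays. The remaining 35 stayed below it on both days, with signals of at most 43.2 and 41.4, as did 7706 of all 18193 named genes. Adamts18, a secreted protease, was at least 6.16-fold higher at day 12, and Adamts5, an aggrecan-cleaving protease, was 2.01-fold lower. The other 34 differed by less than 2-fold. Among all 10487 measured genes the share past 2-fold was 3.56% upward and 1.73% downward, so 1 member in each direction is near the background. The median log2 ratio of day 12 over day 5 was 0.12 for the 36 members and -0.05 for all measured genes, and 77.8% of members and 80.3% of all genes lay within 0.5 of 0. In RNA from a whole culture, fewer cells of a type and less RNA per cell cannot be told apart.

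Markers were read to check the labelled cell type. All 7 osteoblast markers with a single-symbol probe set, among them Sp7, Alpl, Ibsp and Col1a1, were above the floor on at least 1 day and 6 of them on both. Runx2, Spp1, Bglap and Bglap2 were also listed but had no such probe set. The summed signal of the 7 was 21785 at day 5 and 43470 at day 12. Of the 7, 5 were at least 2-fold higher at day 12, against 3.56% of all measured genes. Of 15 myeloid markers 14 were measured, and their summed signal was 5508 at day 5 and 13724 at day 12. Itgam, which encodes CD11b, was below the floor on both days (14.6 and 35.4). The summed signal of 12 chondrocyte markers was 34935 and 13450. All 5 smooth muscle markers were measured, with a summed signal of 20311 and 19085. Of 4 adipocyte markers 2 were measured, with a sum of 234 and 107. None of 6 endothelial markers was above the floor.

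**Figure D1:**
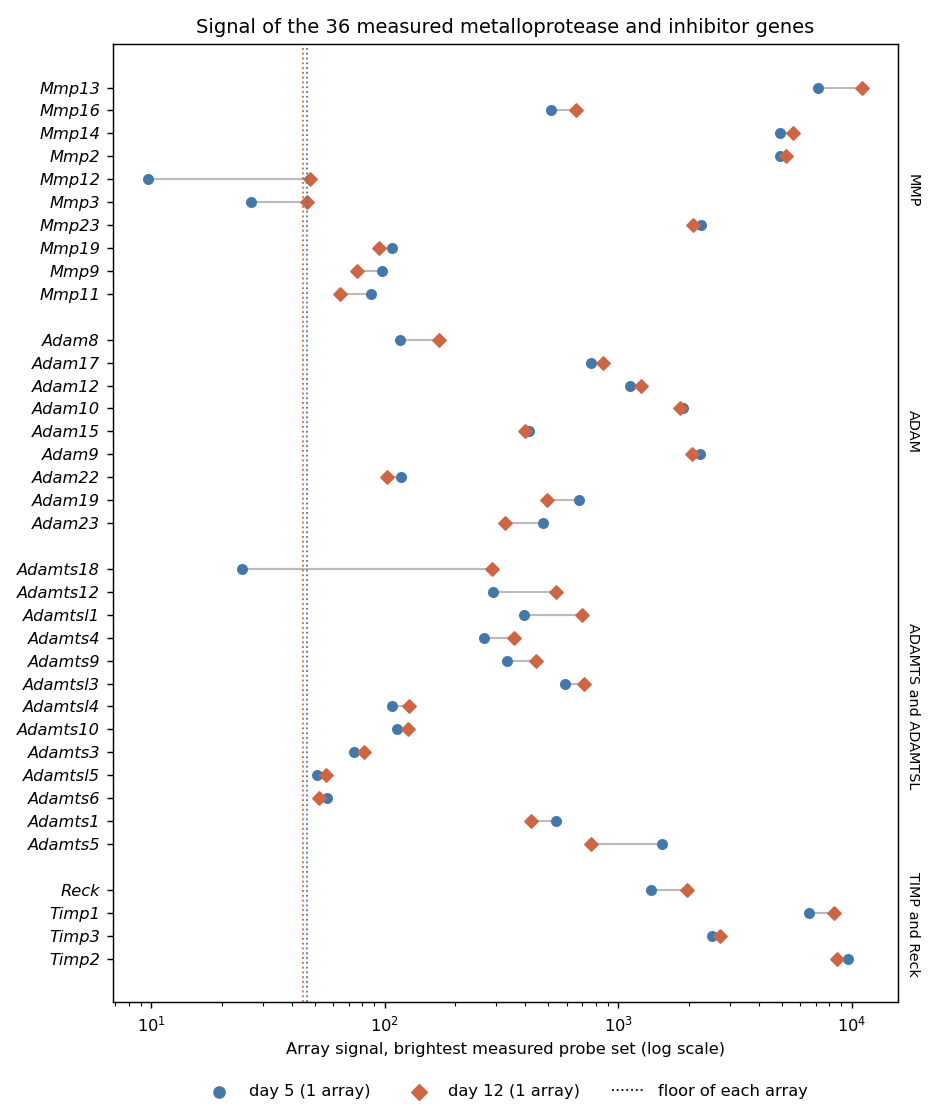
Array signal (log axis) of the 36 measured genes on the day 5 array (circles) and the day 12 array (diamonds), grouped by family, with dotted lines at the floors of 46.6 and 44.8. Only Mmp12, Mmp3 and Adamts18 start below the floor at day 5, and most pairs of symbols lie close together.

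The MMP genes include a run of 10 that are next to each other in the order of protein-coding genes of the assembly GRCm38.p6: Mmp13, Mmp12, Mmp1b, Mmp3, Mmp1a, Mmp10, Mmp8, Mmp27, Mmp20 and Mmp7. Many MMP genes are known to be induced through AP-1, the Fos and Jun dimer that binds TGAGTCA, and Mmp13 also through Runx2, a transcription factor of osteoblasts that binds AACCACA. Both motifs and the TATA motif TATAAA were searched on both strands in RefSeq's promoter windows, from 250 bases before to 50 bases after each annotated start. Windows of 300 bases were found for all 10 genes of the run (12 windows) and for 42 of the 71 members. Shown are the last 130 bases before the start of 5 of these genes, Mmp13 and neighbours with little or no signal. The 5 genes were picked by name, and for each a window holding the AP-1 letters in these bases was taken. All lie on the plus strand of GRCm38.p6, and capitals mark matches to any of the 3 motifs or their reverse complements, none of which overlap.
Mmp13, chr9:7272384-7272513: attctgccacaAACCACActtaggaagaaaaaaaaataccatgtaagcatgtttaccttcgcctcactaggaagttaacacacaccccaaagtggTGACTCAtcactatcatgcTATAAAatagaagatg
Mmp12, chr9:7347244-7347373: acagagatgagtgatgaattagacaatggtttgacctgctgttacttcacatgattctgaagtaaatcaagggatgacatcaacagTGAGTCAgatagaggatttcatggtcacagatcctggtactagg
Mmp3, chr9:7445692-7445821: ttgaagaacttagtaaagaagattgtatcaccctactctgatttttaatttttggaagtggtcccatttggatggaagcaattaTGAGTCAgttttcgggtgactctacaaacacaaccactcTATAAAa
Mmp1a, chr9:7464011-7464140: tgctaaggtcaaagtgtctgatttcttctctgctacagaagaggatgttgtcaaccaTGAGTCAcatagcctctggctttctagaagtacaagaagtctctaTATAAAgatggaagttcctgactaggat
Mmp10, chr9:7502212-7502341: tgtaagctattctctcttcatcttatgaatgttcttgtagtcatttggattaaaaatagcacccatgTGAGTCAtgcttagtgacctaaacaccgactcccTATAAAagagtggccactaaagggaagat

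The AP-1 letters are present in all 5 windows shown because of that choice. In the whole run they were found before Mmp13, Mmp12, Mmp1b, Mmp3, Mmp1a, Mmp10 and Mmp7, but in no window of Mmp8, Mmp27 or Mmp20. In the windows shown these letters began 35 bases before the start of Mmp13, 44 before that of Mmp12 and 46 before that of Mmp3. They began 73 before that of Mmp1a and 63 before that of Mmp10. In all, 7 of the 12 windows of the run (58.3%) held TGAGTCA or its reverse complement, against 5.20% of 32851 RefSeq promoter windows and 2 of 36 windows of members outside the run (Adam19 and Adam1b). The run's genes are relatives of 1 family, so their windows are not independent. AACCACA was found in 3 windows of the run, those of Mmp13, Mmp7 and Mmp27, and in 5.27% of all windows. It began 119 bases before the start of Mmp13. TATAAA was found in 9 of the 12 windows and in 13.6% of all. Its place varied, from 123 bases before the start in Mmp7 to just after the start in Mmp12, with 16 bases before it in Mmp13. Mmp7 had another match 26 bases before the start. A match describes the letters in the window, and factor binding was not measured.

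Mmp13, the main collagenase of bone and of late growth cartilage, was the only gene of the run clearly above the floor. Its signal was 7185 at day 5 and 11100 at day 12, a log2 ratio of 0.63 (1.54-fold). It was 0.47 under quantile normalisation and 0.49 after loess correction. The gene has 1 probe set, and the signal scale may be compressed at this height. Next to it, Mmp12, the elastase of macrophages, had signals of 9.72 and 48.0, and Mmp3 (stromelysin 1), which also activates other proMMPs, had 26.6 and 46.4. Both crossed the floor at day 12 by less than 1.1-fold, so Mmp12 was at least 1.03-fold higher and no fold is given for Mmp3. These bounds follow the floor: with the 50th percentile floor the log2 ratio was at least 1.29 for Mmp12 and 0.80 for Mmp3, which was then above the floor on both days, and with a pseudocount in place of the floor it was 1.19 and 0.51. The summed myeloid marker signal was higher at day 12 as well (5508 and 13724), and its part in the Mmp12 signal was not tested. Mmp1a and Mmp1b, the mouse counterparts of interstitial collagenase, and Mmp10, Mmp8, Mmp20 and Mmp7 were below the floor on both days, and Mmp27 was not analysed here.

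**Figure D2:**
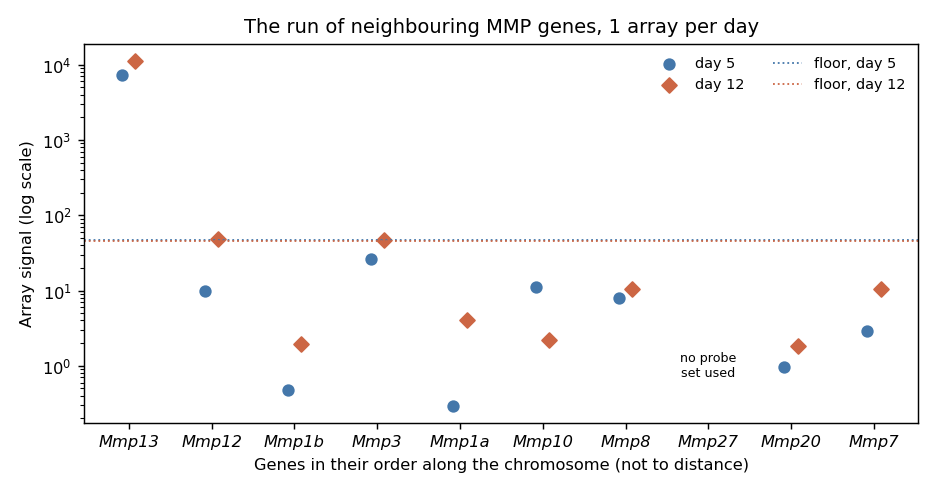
Array signal (log axis) of the 10 neighbouring MMP genes in chromosomal order on the day 5 array (circles) and the day 12 array (diamonds), with dotted lines at the floors. Mmp13 sits at 7185 and 11100, Mmp12 and Mmp3 reach 48.0 and 46.4 at day 12, and the other genes with a probe set stay below the floor.

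Outside the run, the enzymes that act together on fibrillar and basement membrane matrix had similar signals on both days. Mmp14 (MT1-MMP), a membrane collagenase that activates proMMP-2 at the cell surface, had signals of 4938 and 5590, a log2 ratio of 0.18. The ratio was 0.08 under quantile normalisation and 0.09 after loess correction. The other 2 probe sets of Mmp14 gave 0.24 and 0.22. Mmp2 (gelatinase A), the enzyme so activated, had 4909 and 5218, a log2 ratio of 0.09, and 0.00 in its other probe set. Mmp16, another membrane-type MMP, was higher at day 12 in all 4 probe sets, at log2 ratios from 0.21 to 0.36, with signals of 515 and 660 in the brightest. These differences are all far below 2-fold. Mmp23, which is anchored by its N-terminal part, had 2251 and 2091 (-0.11, and -0.09 in its second probe set).

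Apart from Mmp23, the MMPs with lower signal at day 12 were close to the floor on both arrays. Mmp9 (gelatinase B), the gelatinase of osteoclasts and myeloid cells, had signals of 97.6 and 76.2, a log2 ratio of -0.36. Its second probe set went from 52.6 to 30.5, below the floor at day 12. Neither probe set of Mmp9 was higher at day 12. Of the 14 measured myeloid markers, 12 were at least 2-fold higher, against 3.56% of all measured genes, and their part in the Mmp9 signal was not tested. Of 8 osteoclast markers 4 were measured. Atp6v0d2, a subunit of the proton pump, had signals of 15.7 and 85.6 and was at least 1.84-fold higher at day 12, while Ctsk, Itgb3 and Acp5 had log2 ratios of 0.36, -0.20 and -0.24. The other 4, among them Calcr, were below the floor on both days. Mmp11 (stromelysin 3) had 87.5 and 64.5 (-0.44) and Mmp19 had 107 and 94.3 (-0.19). Mmp17 and Mmp24, both membrane-type MMPs, were below the floor on both days. Over the 10 measured MMPs the median log2 ratio was 0.02, with 5 above 0 and 5 below it. The middle values are the floor bounds of Mmp12 (0.04) and Mmp3 (-0.01), and both genes had the higher signal at day 12. With the 50th and 75th percentile floors the median was 0.13 and 0.18, so a median this close to 0 depends on the floor. Among the 10 MMPs, the bound of Mmp3 was the only value to change side under another scaling.

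The inhibitors were well above the floor apart from Timp4, which was below it on both days. Timp1, a soluble inhibitor that is induced by many growth factors, had signals of 6560 and 8344, a log2 ratio of 0.35. It was 0.22 under quantile normalisation and 0.23 after loess correction. Timp2, which also takes part in the activation of proMMP-2 by Mmp14, had 9600 and 8643 (-0.15). Under quantile normalisation and loess this ratio was -0.33 and -0.29. The 4 other measured probe sets of Timp2 gave log2 ratios from -0.48 to 0.05, so they do not agree on a direction. Timp3, which binds to the matrix and also inhibits Adam17 and aggrecanases, had 2514 and 2714 (0.11), with -0.11 to 0.15 in its other 3 probe sets. Reck had signals of 1386 and 1970, a log2 ratio of 0.51 (1.42-fold) in its only probe set. The median of the 4 measured inhibitors was 0.23, and 0.15 and 0.16 under quantile normalisation and loess. None reached 1.5-fold, which 7.25% of all measured genes did upward and 7.70% downward, so none of 4 is near the background. Mmp13, Timp1 and Reck were thus higher at day 12 by 1.54-fold, 1.27-fold and 1.42-fold, and signals of different probe sets cannot be used to set the amount of an inhibitor against that of its target.

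The ADAMs split into 9 genes above the floor on both days and 19 below it on both. Of all 18193 named genes, 7706 were below it on both. None of the 9 measured ADAMs differed by 1.5-fold, and their median log2 ratio was -0.06. Over all measured genes 7.25% were at least 1.5-fold higher and 7.70% lower, so none of 9 is near the background. Adam10, which releases the outer part of Notch receptors and N-cadherin, had signals of 1896 and 1831 (-0.05), with -0.11 and -0.17 in its other 2 measured probe sets. Adam17, which releases TNF, RANKL and ligands of the EGF receptor, had 761 and 862 (0.18). Its other probe sets gave 0.08 and -0.17, so no direction can be read. Adam9, a widely expressed sheddase, had 2232 and 2063 (-0.11), and Adam12, an ADAM of mesenchymal cells and muscle, had 1117 and 1245 (0.16, and 0.14 in its second probe set).

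Adam8 and Adam23 differed most among the ADAMs, in opposite directions. Adam8, a sheddase of leukocytes and osteoclasts, had signals of 116 and 171, a log2 ratio of 0.56 (1.48-fold) in its only probe set. The summed myeloid signal was higher at day 12 as well, from 5508 to 13724, and its part in this value was not tested. Adam23, a non-catalytic adhesion protein first known from brain, had 477 and 328 (-0.54), and its second probe set gave -0.39. Adam22, its non-catalytic relative, had 117 and 102 (-0.20). Adam19, a sheddase of neuregulin, had 679 and 495 (-0.45), but only -0.08 in its second probe set. Adam15 had 415 and 398 (-0.06) in a probe set of shared sequence, and its other measured probe sets gave -0.42 and, from below the floor at day 5, at least 0.32. The remaining 19 ADAM genes were below the floor on both days: Adam11, Adam28, Adam33 and all 16 of the group expressed mostly in testis and epididymis, Adam1a, Adam1b, Adam2, Adam3, Adam4, Adam5, Adam6a, Adam6b, Adam7, Adam18, Adam21, Adam24, Adam25, Adam26a, Adam32 and Adam34. Adam9 is next to Adam32 in gene order, at the end of a run with Adam18, Adam3 and Adam5, and was the only gene of that run with a signal above the floor.

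Both members past 2-fold were ADAMTS genes. Adamts18 had a signal of 24.5, below the floor, at day 5 and of 287 at day 12, which gives a log2 ratio of at least 2.62. A second probe set went from 7.59 to 59.8, a bound of 0.36, and the third was below the floor on both days, at 3.14 and 8.05. All 3 probe sets had the higher signal at day 12. With the floor at the 75th percentile the log2 ratio was at least 0.66, and with the median of the measured probe sets at least 1.49. With the 50th percentile floor, which the day 5 signal of the brightest probe set passed, it was 3.55. With a pseudocount in place of the floor it was 2.79. Adamts16, which is the closest relative of Adamts18, was below the floor on both days.

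Adamts5 (aggrecanase 2), a main aggrecan-cleaving enzyme of cartilage, was lower at day 12. Its brightest probe set had signals of 1540 and 767, a log2 ratio of -1.01, which lies at the 2-fold limit. The others went from 1125 to 636 (-0.82) and from 343 to 215 (-0.67), so all 3 measured probe sets were lower, and only the brightest passed 2-fold. It fell just short of 2-fold after median centring, after loess correction (-0.97) and with a pseudocount (-0.99), and stood at -0.82 as the median of probe sets. The 12 chondrocyte markers were lower at day 12 too, each by at least 1.5-fold, with a summed signal of 34935 and 13450, and their part in the value of Adamts5 was not tested. The Adamts5 substrates Acan (aggrecan), itself among these chondrocyte markers, and Vcan (versican) had log2 ratios of -0.65 and -0.95.

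The other proteoglycan-cleaving enzymes did not share that direction as a group. Adamts1, which is next to Adamts5 in gene order, had signals of 543 and 424 (-0.36). Adamts4 (aggrecanase 1) had 267 and 357 (0.42), with 0.33 in its second probe set, and Adamts9 had 333 and 443 (0.41). Adamts5 and Adamts4, the main aggrecanases, thus lay on opposite sides of 0 in each of their measured probe sets. Adamts8, Adamts15 and Adamts20 were below the floor on both days.

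Among the remaining ADAMTS genes, Adamts12, which cuts the cartilage protein COMP, had signals of 291 and 540, a log2 ratio of 0.89 (1.86-fold). Adamts3, a procollagen N-proteinase, had 73.6 and 81.7 (0.15), Adamts10, a fibrillin-binding member, 113 and 126 (0.15), and Adamts6 56.5 and 52.1 (-0.12). These 3 lie close to the floor. Adamts7, Adamts16 and Adamts19 were below it on both days.

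All 4 measured ADAMTSL genes had a log2 ratio above 0. Adamtsl1 (punctin) was the furthest, with signals of 396 and 697 in its brightest probe set, a log2 ratio of 0.82 (1.76-fold). A second probe set went from 150 to 307 (1.04), while the third went from 318 to 288 (-0.15). Probe sets of this gene therefore disagree, with 2 higher and 1 slightly lower. Adamtsl3 had 588 and 714 (0.28), Adamtsl4, a fibrillin-binding protein, 108 and 127 (0.23), and Adamtsl5 51.2 and 56.3 (0.14). Adamtsl5 lies close to the floor, and Adamtsl2 was below it on both days. Of the 13 measured ADAMTS and ADAMTSL genes 10 had a ratio above 0, and their median log2 ratio was 0.23, against -0.05 over all genes, of which 43.6% were above 0.

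**Figure D3:**
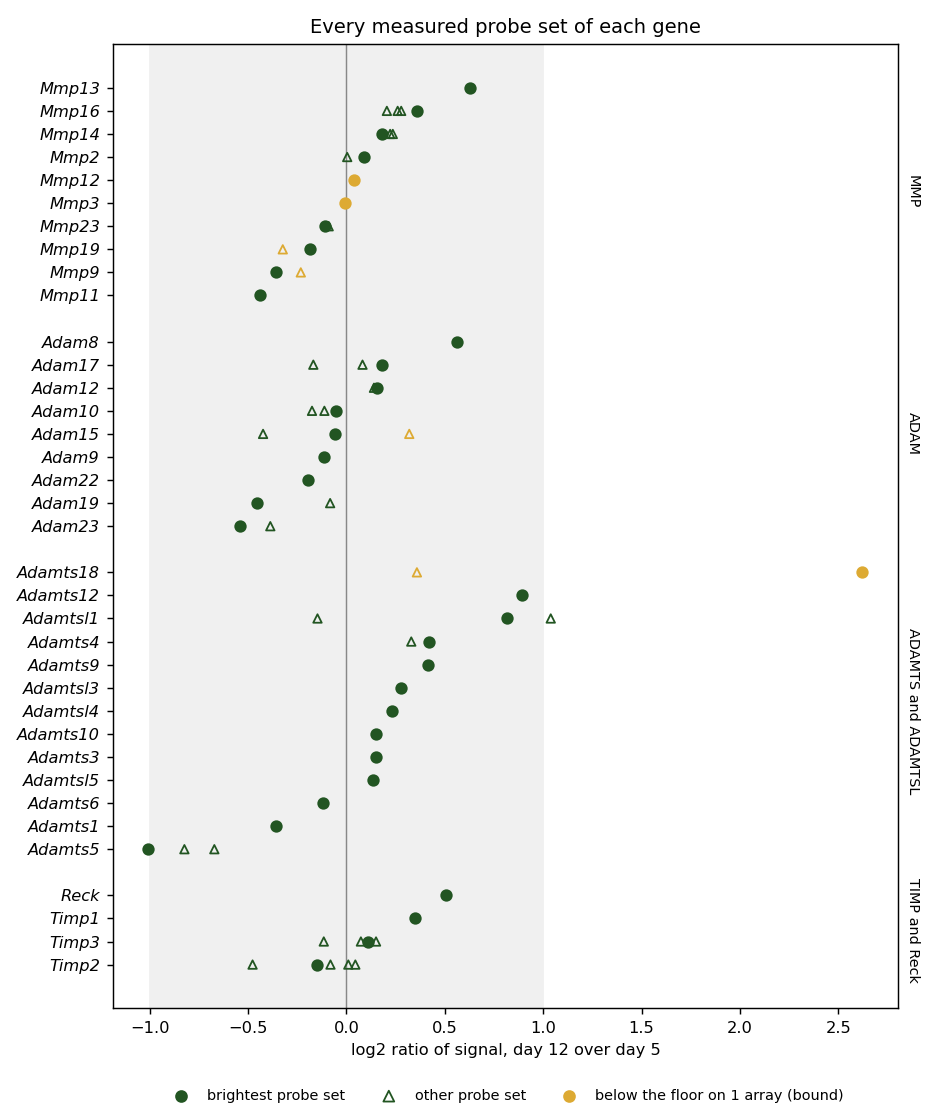
The log2 ratio of day 12 over day 5 for every measured probe set of the 36 measured genes, with filled circles for the brightest probe set, open triangles for the others and yellow for bounds. Grey marks less than 2-fold, and the brightest probe sets of Adamts18 (2.62) and Adamts5 (-1.01) and 1 of Adamtsl1 (1.04) lie outside it.

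At a lower limit of 1.5-fold, 4 members were higher at day 12 (Adamts18, Adamts12, Adamtsl1 and Mmp13) and 1 was lower (Adamts5). Over all measured genes the shares were 7.25% and 7.70%. Of 18 members with more than 1 measured probe set, 13 had all of them on the same side of 0. The exceptions were Adam15, Adam17, Adamtsl1, Timp2 and Timp3. The log2 ratios of a member's 2 brightest probe sets differed by a median of 0.11, against 0.17 over 4446 genes, so ratios of this size cannot be told from probe error.

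Genes linked to the activation of the precursors were set beside the members. Of 8 measured, among them Bsg and Plaur, which are not activating enzymes, 1 was at least 2-fold higher and none lower. Their median log2 ratio was 0.42, and the shares past 2-fold over all measured genes were 3.56% upward and 1.73% downward. Pcsk6 (PACE4), a proprotein convertase that is held at the cell surface and matrix, had signals of 152 and 810, a log2 ratio of 2.41 (5.33-fold). Pcsk5, its relative, was 1.92-fold higher (575 and 1105), and furin, the convertase that cuts most ADAM and ADAMTS propeptides, had 308 and 289 (-0.09). Bsg (EMMPRIN), a surface protein that induces MMPs, had a log2 ratio of 0.74. Of the plasminogen activators, Plat had a log2 ratio of -0.55 and Plau of 0.42, and Plg was below the floor. The convertases thus differed among themselves, with Pcsk6 past 2-fold and Furin and Pcsk7 (0.09) close to 0.

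Of 5 measured partners of Adam10 and Adam17, all had a log2 ratio below 0 and 1 was at least 2-fold lower (median -0.39). Among all 10487 measured genes 5918 were below 0 and 1.73% at least 2-fold lower, so no shared fall can be read from 5 genes. The gene past 2-fold was Tspan5, a tetraspanin that carries Adam10 to the cell surface, at 186 and 92.3 (-1.01). Its second probe set gave only -0.18. Tspan17 and Tspan14, of the same group, had -0.42 and -0.02. Frmd8 and Rhbdf1 (iRhom1), which stabilise and transport Adam17, had -0.39 and -0.24. Among proteins shed by ADAMs, 15 were measured, with 1 past 2-fold in each direction (median -0.38). The shares over all measured genes were 3.56% upward and 1.73% downward. Ereg (epiregulin), a ligand of the EGF receptor released by Adam17, was 2.29-fold lower, with signals of 169 and 74.0. Ptprz1, a receptor phosphatase, was the higher one, at 27.5 and 994 (at least 21.3-fold), and at 18.7 and 590 in its second probe set. Notch1 had a log2 ratio of -0.98 and Cx3cl1 of -0.79.

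Of 8 other zinc metalloproteases measured, 2 were at least 2-fold higher and none lower (median -0.16), against 3.56% and 1.73% of all measured genes. The 2 higher ones were Phex, also listed as an osteoblast marker, at 35.6 and 555, and Mme (neprilysin), a surface peptidase, at 610 and 2227 (3.65-fold). The second probe set of Mme gave a log2 ratio of 1.68. Tll1 and Bmp1, which remove the C-propeptide of procollagens, had log2 ratios of -0.48 and -0.21, and Ece1, which makes endothelin, had -0.34. Of 6 measured genes listed as other protease inhibitors none was shown past 2-fold (median -0.02). The list includes Serpinh1 (0.12), which is not a protease inhibitor. The ratios of A2m, Spock1 and Spock3 are bounds set by the floor, so larger differences in these 3 cannot be seen. A2m, the wide-range inhibitor alpha-2-macroglobulin, had 79.9 and 18.3, below the floor at day 12, and Tfpi2 had a log2 ratio of -0.79. Spock1 (testican 1) had 11.1 and 81.4, at least 1.75-fold higher, and Spock2 had a log2 ratio of 0.39. Of 12 measured matrix substrates none passed 2-fold (median 0.09), with log2 ratios of -0.95 for Vcan and -0.92 for Col2a1 at the low end and 0.74 for Tnc (tenascin C) at the high end.

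**Figure D4:**
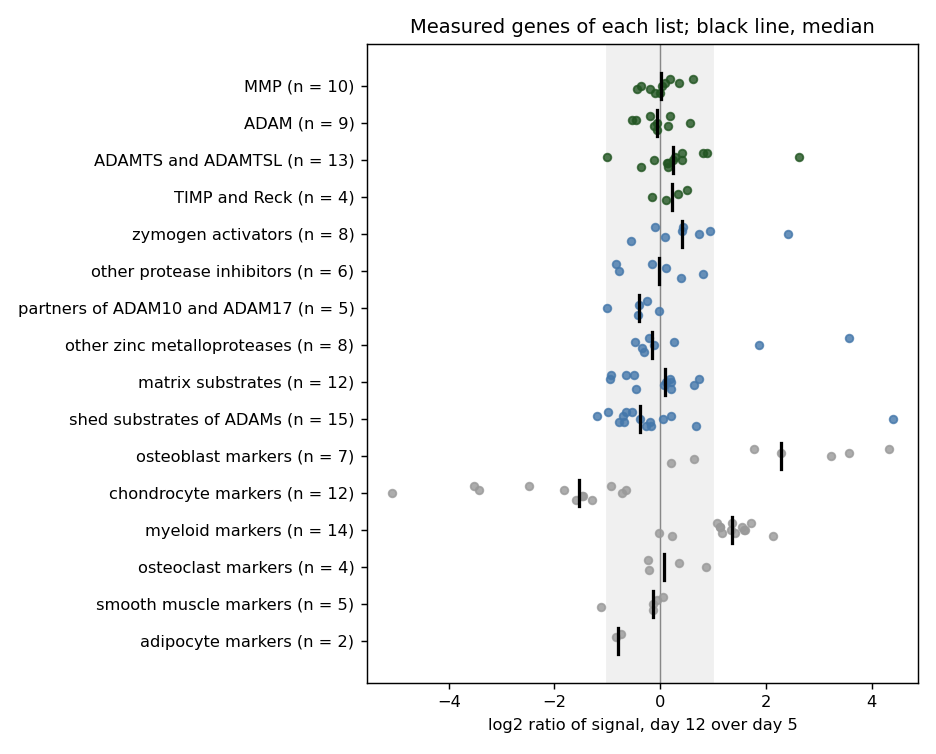
The log2 ratio of day 12 over day 5 for the measured genes of the 4 member families (green), 6 related lists (blue) and 6 marker lists (grey), with a black line at each median and less than 2-fold in grey shading. The medians of the families lie between -0.06 and 0.23, while those of the osteoblast, chondrocyte and myeloid markers lie at 2.29, -1.53 and 1.35. Acan, Col2a1, Col1a1, Col1a2 and Phex each appear in both a related list and a marker list.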

How the data were processed

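The authors deposited 1 table of signal intensity on a linear scale, made with GCOS 1.4 and MAS5 per the submitters' processing notes, which give no settings. The trimmed mean (2% off either end) was 199.9 on each array, so both were scaled to a common target and a change in total RNA per cell cannot be seen. Gene symbols came from the platform annotation. Of 34945 probe sets with a single symbol, 34754 were found in GRCm38.p6 by Entrez number and none was renamed. Another 5 that name a member among several genes were not used. Members, and genes of the related and marker lists, without a single-symbol probe set were not analysed here. Each gene was read from its brightest measured probe set. Signals under the floor were set to the floor, so the log2 ratio of such a gene is a bound. A gene was counted from 2-fold.

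Every measured member is named, and from each related list those past 2-fold and up to 4 with the largest ratio. Further genes of the related and marker lists were picked with their values in view. Members and lists were chosen with earlier results of these data known. The number of arrays limits the precision. Alternatives were median centring, quantile normalisation, loess, the 50th or 75th percentile as floor, a pseudocount of 20 without a filter, the median over probe sets, no shared-sequence probe sets, symbols as given, and limits of 1.5-fold and 3-fold. Calculations, tested on simulated data first, used Python 3.11.15, numpy 2.4.6, pandas 2.3.3 and statsmodels 0.14.6.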

Additional observations from a re-analysis of the deposited data

How the results depend on the processing

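No paired analysis was possible because each day has 1 array. A count was taken as changed beyond 1.5 times, and a ratio beyond 0.17, the median difference between 2 probe sets of a gene. Without replicates these limits cover probe error only. The count of members at least 2-fold higher was 3 with the 50th percentile floor (Adamts18, Adamts16 and Mmp12), 2 with the pseudocount (Adamts18 and Mmp12) and 0 with the 75th percentile floor, and 4 members passed 1.5-fold. The count of members at least 2-fold lower was 2 with the 50th percentile floor (Adamts5 and Adam5), and 0 after median centring, after loess, with the pseudocount, with the median of probe sets and at 3-fold. The median of ADAMTS and ADAMTSL genes was 0.42 with the 75th percentile floor, which leaves fewer genes (24 members in all). The other family medians moved by less than 0.17, and that of the ADAMs was 0.04 with the pseudocount. Of 312 values of single members under an alternative, 301 moved by no more than 0.17 and 11 by more. This tally says little of robustness, since several alternatives could move few values or none. Median centring, for 1, shifted every ratio by the same small amount. No member past 2-fold changed sign. Changes of sign among smaller ratios were not counted, and Adam15 went from -0.06 to 0.02 after loess. Using the symbols as given changed nothing, since none had been renamed.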
